A study of Homo sapiens with 14 samples.

Results

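The 58 genes described here carry cells through mitosis. They were taken as a list of symbols by function, from the kinases that start mitosis to the factors that split the daughter cells, and a symbol counted if it was a row of the deposited expression table. All 58 were among its 13734 genes, and all 58 were among the 13674 genes tested. At the entry into mitosis, cyclin B bound to CDK1 sets off chromosome condensation and spindle assembly, helped by the polo-like and Aurora kinases. Kinetochores, built on centromeres marked by the histone variant CENPA, attach chromosomes to the spindle, and the spindle checkpoint holds back the anaphase-promoting complex (APC/C) until all are attached. Most of these genes are transcribed in G2 phase and mitosis, under the DREAM and MuvB complexes, B-Myb and FOXM1.

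The study asked how BET bromodomain proteins and the Hippo pathway co-activators YAP and TAZ relate in transcription, using RNA-seq of MDA-MB-231, an established line of human breast cancer cells of mesenchymal type. There were 14 libraries in 7 groups, 2 libraries per group. The groups were a control siRNA, YAP/TAZ siRNA mix 1 and mix 2 (2 reagents against YAP and TAZ, harvested 48 h after transfection), BRD siRNA mix A and mix B (against the BRD genes, 72 h), DMSO, and JQ1, a small molecule that displaces BET bromodomains from acetylated histones (1 µM for 24 h). No time is given for the control siRNA, so both knockdowns are compared with the same 2 control libraries. All groups are the same cell line, and no other allele or agent is named for any of them. Whether the 2 libraries of a group came from different cultures is not stated, and p-values then cover only the spread between these samples, which may be technical.

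Depth ran from 15741695 to 37311326 reads in genes per library. Levels are given in scaled RPM, reads of a gene relative to the library size, as the authors scaled them. YAP1 fell from 174 and 190.0 with control siRNA to 18.6 to 24.2 over the 4 YAP/TAZ libraries, and WWTR1, which encodes TAZ, fell from 126 and 135 to 12.7 to 17.2. With BRD siRNA, BRD3 fell from 29.7 and 32.5 to 9.05 to 10.6 and BRD2 from 251 and 252 to 154 to 204. YAP1 was itself lower with BRD siRNA (log2 fold change -0.85, SE 0.0579, adjusted p = 2.57e-11, limma) and with JQ1 against DMSO (-0.84, SE 0.0668, adjusted p = 3.36e-10). WWTR1 was not called with BRD siRNA (-0.12, adjusted p = 0.0582), with mix A above the controls (147 and 154) and mix B below them (98.1 and 94.6), and was at -0.33 with JQ1 (adjusted p = 0.000115). BRD2 rose with JQ1 (1.91, adjusted p = 3.5e-16). Of the markers of the line, VIM, CD44, AXL and KRT18 were present, ERBB2 was at 46.5 to 98.0, and ESR1, PGR and CDH1 were not listed in the table.

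YAP/TAZ siRNA lowered every one of the 58 genes. The call rule throughout is an adjusted p under 0.05 from limma, fitted to all tested genes. On that rule 58 members fell and 0 rose, where 35.9% of all tested genes fell and 43.1% rose. The median log2 fold change of the members was -1.84, against 0.07 for all genes, and it ran from -2.87 for CDCA5 to -0.41 for BUB3. Of the 58 members, 48 fell at least 2-fold, against 8.37% of all genes. In each of the 58 all 4 knockdown libraries lay below both control libraries, which held for 29.1% of all genes.

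BRD siRNA lowered 57 of the 58, and 0 rose. Among all tested genes 37.6% fell and 37.6% rose. The median of the members was -1.43, against -0.0047 for all genes, from -2.45 for ANLN to -0.03 for BUB3, the member that was not called. At least 2-fold lower were 42 members, against 8.27% of all genes, and 57 lay below both controls in all 4 libraries, against 32.1% of all genes. The comparison shares its control libraries with that of YAP/TAZ siRNA, so the values of both are set side by side and no likeness between them is drawn.

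JQ1 lowered all 58 within 24 h, by more than 2-fold in 56. The exceptions were CDC25B and CKAP5, at -0.70 and -0.89. Among all tested genes 36.3% fell and 37.6% rose, and 8.94% fell at least 2-fold. The median of the members was -2.38, against 0.01 for all genes, from -3.35 for ESPL1 to -0.70 for CDC25B. Both JQ1 libraries lay below both DMSO libraries in 58 members, against 43.4% of all genes. In bulk RNA, fewer cells in G2 and mitosis and less of these transcripts per cell cannot be told apart, here or in any comparison that follows.

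Markers of other cell types also differed between the groups, and their summed level was higher with each treatment than with its own control. Of 12 markers of leukocytes, fibroblasts and endothelium, 6 were listed (CD14, LYZ, COL1A1, PDGFRB, PECAM1 and KDR), and their summed level was 20.04 to 25.2 with control siRNA, 75.0 to 77.0 and 65.5 to 71.2 with YAP/TAZ mix 1 and mix 2, 52.8 to 56.2 and 35.1 to 35.2 with BRD mix A and mix B, 14.5 to 15.96 with DMSO, and 19.98 to 20.8 with JQ1. Among those not listed were the defining markers PTPRC, CD3E, COL3A1, DCN and VWF. With BRD siRNA the listed markers did not move as one. Their sum followed KDR, which went from 3.94 and 4.45 to 24.3 to 40.3, while LYZ went from 5.76 and 6.26 to 1.15 to 1.90. With YAP/TAZ siRNA LYZ was at 24.5 to 27.3, and CD14, COL1A1, PDGFRB and PECAM1 also lay above both controls in all 4 libraries. KDR was at 3.16 and 3.79 with mix 1 and 7.94 and 8.35 with mix 2. The part of these markers in the results was not tested.

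**Figure D1:**
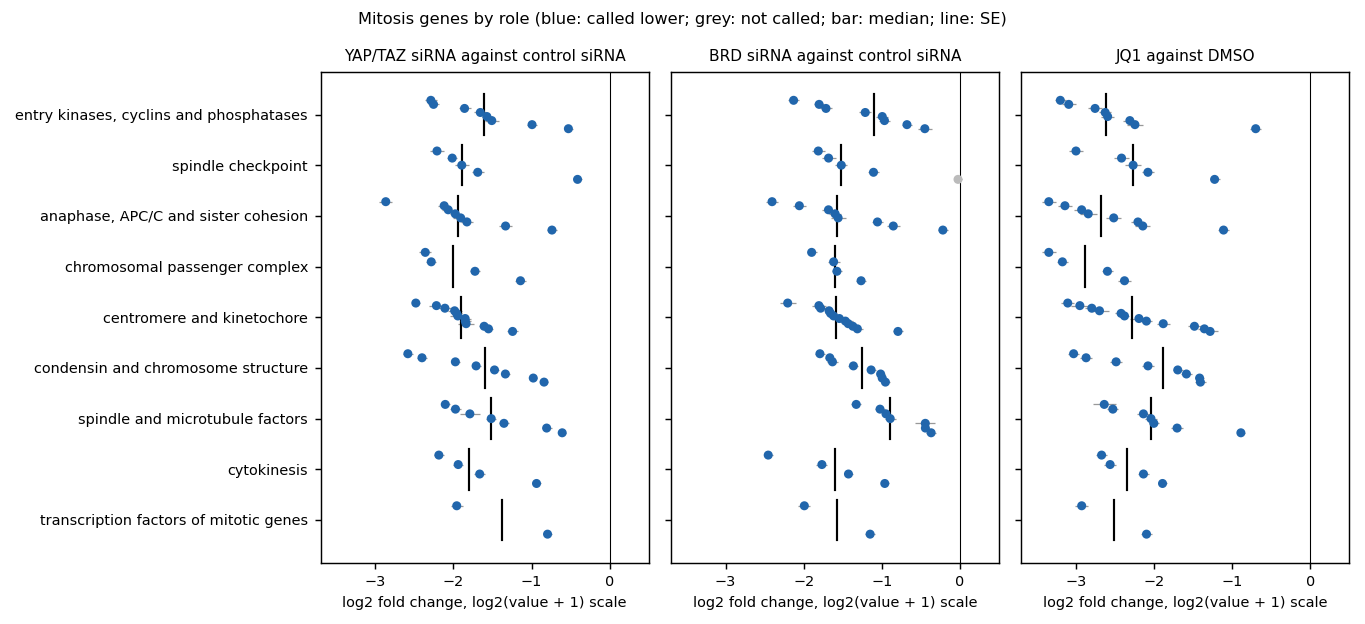
Log2 fold change (log2(value + 1) scale) of each of the 58 genes, by role, for YAP/TAZ siRNA and BRD siRNA against control siRNA and JQ1 against DMSO; points are genes, lines are SE, bars are medians of the role, blue is called lower and grey is not called. All points lie left of 0, and BUB3 with BRD siRNA (-0.03) is the grey point.

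Taken per gene as a percent of the control mean, the median member was left at 35.6% with YAP/TAZ mix 1, 22.0% with mix 2, 35.8% with BRD mix A, 40.3% with mix B and, of the DMSO mean, 18.7% with JQ1. The number of members under 20% was 2, 20, 4, 2 and 33 in that order. In 40 members JQ1 left a smaller percent than each of the 4 mixes did. These percents were taken for the members only, so the counts have no share of all genes beside them.

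The promoters of genes that fell together were read for the letters through which mitotic genes are known to be controlled. The cell cycle genes homology region (CHR), bound by the MuvB subunit LIN54, was read here as TTTGAA or TTCGAA, and other forms were not searched for. It often stands near a CCAAT box, the site of the factor NF-Y. RefSeq promoter windows on GRCh38.p14, 250 bases before to 50 after each annotated start, were matched for 49 of the 58 genes, 2 of them (SGOL1 and SGOL2) through the newer symbol that RefSeq gives, giving 65 windows. The members not matched were AURKA, BUB3, TTK, UBE2C, BIRC5, CENPM, TPX2, RACGAP1 and FOXM1. On either strand, CHR letters stood in 66.2% of the member windows and in 16.4% of all 35116 windows. CCAAT stood in 64.6% against 34.6%. E2F-like letters (TTTCGCGC, TTTGGCGC or TTCCCGCC) stood in 12.3% against 4.24%, and the TEAD-like letters GGAATG, the kind bound by the partners of YAP and TAZ, in 10.8% against 14.03%. CHR letters could overlap CCAAT letters, as they do in CDCA8. The CHR letters sat close to the start, in 16.9% of member windows from position -50 to -26 and 21.5% from -25 to -1, against 1.51% and 1.26% of all windows.

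**Figure D2:**
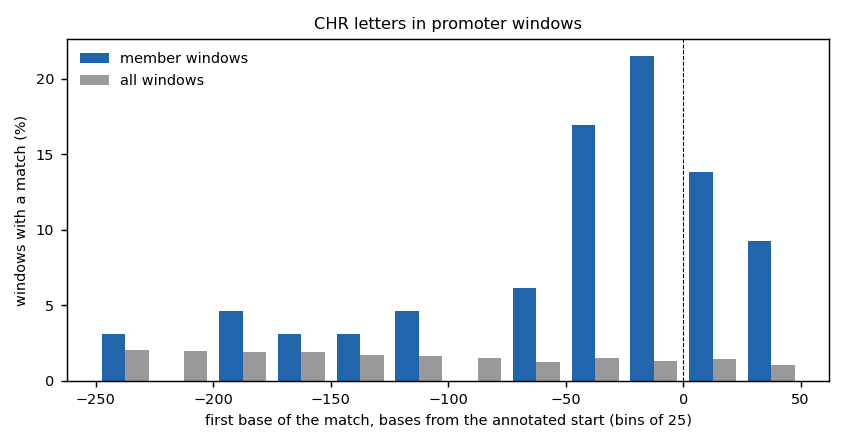
Share of promoter windows (%) whose CHR letters begin in each bin of 25 bases, by distance from the annotated start in bases; blue bars are the 65 member windows and grey bars all 35116 windows. The blue bars are tallest in the bins around the start (16.9%, 21.5% and 13.8%), where the grey bars stand at 1.51%, 1.26% and 1.43%.

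The 120 bases before the start are shown for 8 members, with CHR letters and CCAAT letters (either strand, so also TTCAAA and ATTGG) in capitals. The first 6 hold CHR letters and fell at least 2-fold with YAP/TAZ siRNA and with JQ1. CCNB1 fell without these CHR letters in its window, where other forms of the region were not searched for. CKAP5 fell least among the spindle factors with YAP/TAZ siRNA and JQ1 although its window holds both kinds of letters. On GRCh38.p14 they lie at chr15:59105026-59105145 (CCNB2, plus strand), chr16:23678769-23678888 (PLK1, plus), chr12:53268179-53268298 (ESPL1, plus), chr1:43358861-43358980 (CDC20, plus), chr1:37692396-37692515 (CDCA8, plus), chr7:36389742-36389861 (ANLN, plus), chr5:69167030-69167149 (CCNB1, plus) and chr11:46846281-46846400 (CKAP5, minus), each just before the annotated start, 5′ to 3′ on the annotated strand. The last 40 bases of the full window lie after the start and are not shown. For 7 of the 8 they were found in sense in a GENCODE transcript of the gene.
CCNB2: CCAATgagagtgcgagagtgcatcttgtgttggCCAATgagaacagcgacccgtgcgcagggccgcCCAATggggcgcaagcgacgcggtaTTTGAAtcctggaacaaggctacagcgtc
PLK1: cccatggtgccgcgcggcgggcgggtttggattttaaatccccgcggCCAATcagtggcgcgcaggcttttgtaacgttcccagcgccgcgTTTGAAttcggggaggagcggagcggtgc
ESPL1: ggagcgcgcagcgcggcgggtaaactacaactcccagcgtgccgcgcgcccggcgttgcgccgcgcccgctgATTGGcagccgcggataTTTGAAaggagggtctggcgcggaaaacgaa
CDC20: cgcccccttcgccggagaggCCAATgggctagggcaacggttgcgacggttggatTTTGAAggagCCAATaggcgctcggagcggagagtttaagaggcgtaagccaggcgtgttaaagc
CDCA8: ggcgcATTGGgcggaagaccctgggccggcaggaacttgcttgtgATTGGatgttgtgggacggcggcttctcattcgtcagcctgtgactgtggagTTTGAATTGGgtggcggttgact
ANLN: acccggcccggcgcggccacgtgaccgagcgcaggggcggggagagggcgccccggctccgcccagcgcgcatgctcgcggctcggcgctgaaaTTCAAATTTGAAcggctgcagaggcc
CCNB1: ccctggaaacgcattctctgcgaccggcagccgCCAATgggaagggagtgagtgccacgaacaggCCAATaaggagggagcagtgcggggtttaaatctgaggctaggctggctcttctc
CKAP5: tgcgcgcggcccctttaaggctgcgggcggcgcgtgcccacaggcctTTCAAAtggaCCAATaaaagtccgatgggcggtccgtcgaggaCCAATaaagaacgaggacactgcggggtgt

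CHR letters began at position -29 in both CCNB2 and PLK1, at -31 in ESPL1 and at -23 in CDCA8, where position -1 is the base before the start. Among the 49 matched members, the 39 with CHR letters had median log2 fold changes of -1.91 with YAP/TAZ siRNA, -1.43 with BRD siRNA and -2.41 with JQ1. The 10 without them (CCNB1, PTTG1, SGOL2, AURKB, CENPE, CENPI, SPC24, NCAPH, CKAP2 and MYBL2) had -1.73, -1.39 and -2.17. These are descriptions of set letters in fixed windows, so the 10 may hold other forms of the region, and no test was made.

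Among the kinases, cyclins and phosphatases of mitotic entry, 8 of 8 fell in each of the 3 comparisons. CDK1 is the kinase that starts mitosis. Its level was 270.0 and 241 with control siRNA, 48.8 and 53.2 with YAP/TAZ mix 1, 49.5 and 54.2 with mix 2, 86.3 and 108 with BRD mix A and 118 and 131 with mix B. DMSO gave 336 and 307 and JQ1 gave 46.1 and 47.5. Both YAP/TAZ mixes left about the same level, while the BRD libraries lay between those and the controls. The log2 fold change was -2.29 (SE 0.0741, adjusted p = 1.23e-16) with YAP/TAZ siRNA, -1.21 (SE 0.0741, adjusted p = 4.81e-12) with BRD siRNA and -2.75 (SE 0.0856, adjusted p = 1.02e-16) with JQ1.

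CCNB1, its cyclin partner, stood at 327 and 289.8 with control siRNA, 193 and 202 with YAP/TAZ mix 1, 111 and 130.1 with mix 2, 139.5 and 158 with BRD mix A and 156 and 176 with mix B. The pair of vehicle libraries and the pair of JQ1 libraries gave 524 and 491 with DMSO and 79.4 and 83.5 with JQ1. Its fall with JQ1, to 16.1% of DMSO, was larger than with either knockdown, each taken against its own control. The log2 fold change was -2.62 with JQ1, -0.99 with YAP/TAZ siRNA and -0.97 with BRD siRNA. Both differences passed the test (adjusted p = 3.3e-11 and 4.46e-11, limma). Control siRNA itself held 60.75% of the DMSO level of this gene, which enters both differences. CCNB2, a second mitotic cyclin, fell by 1.66, 0.995 and 2.31 on the log2 scale with YAP/TAZ siRNA, BRD siRNA and JQ1.

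PLK1, the polo-like kinase of mitotic entry and spindle assembly, was at 91.5 and 91.0 with control siRNA, 41.3 and 47.1 with YAP/TAZ mix 1, 12.7 and 13.997 with mix 2, 23.4 and 25.8 with BRD mix A and 27.4 and 32.6 with mix B. With DMSO it stood at 111 and 120.2, and with JQ1 at 12.1 and 13.3. The YAP/TAZ mixes did not overlap: mix 1 left 48.5% of the control mean and mix 2 left 14.6%. PLK4, the kinase of centriole duplication, fell by 2.26, 2.13 and 2.59 on the log2 scale in the 3 comparisons.

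AURKA, the kinase of the spindle poles, had 303 and 287 with control siRNA, 123 and 132 with YAP/TAZ mix 1, 72.4 and 79.9 with mix 2, 76.0 and 84.3 with BRD mix A and 82.3 and 93.3 with mix B. In the inhibitor experiment it was 346 and 333 with DMSO and 35.5 and 36.8 with JQ1. JQ1 left 10.6% of the DMSO mean, the largest fall in this role (log2 fold change -3.20, SE 0.0691, adjusted p = 6.88e-19). The phosphatases that activate CDK1 differed from each other. CDC25C was at 32.8 and 31.5 with control siRNA, 16.9 and 14.9 with YAP/TAZ mix 1, 6.58 and 7.53 with mix 2, 21.7 and 27.3 with BRD mix A and 21.2 and 23.4 with mix B. The DMSO libraries held 30.8 and 28.6 and the JQ1 libraries 5.50 and 5.48. Its 4 BRD libraries lay just under the controls (log2 fold change -0.45, SE 0.0901, adjusted p = 0.000132), while mix 2 and JQ1 brought it to 21.9% and 18.4%. CDC25B fell by 0.53, 0.68 and 0.70, under 2-fold in each comparison.

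**Figure D3:**
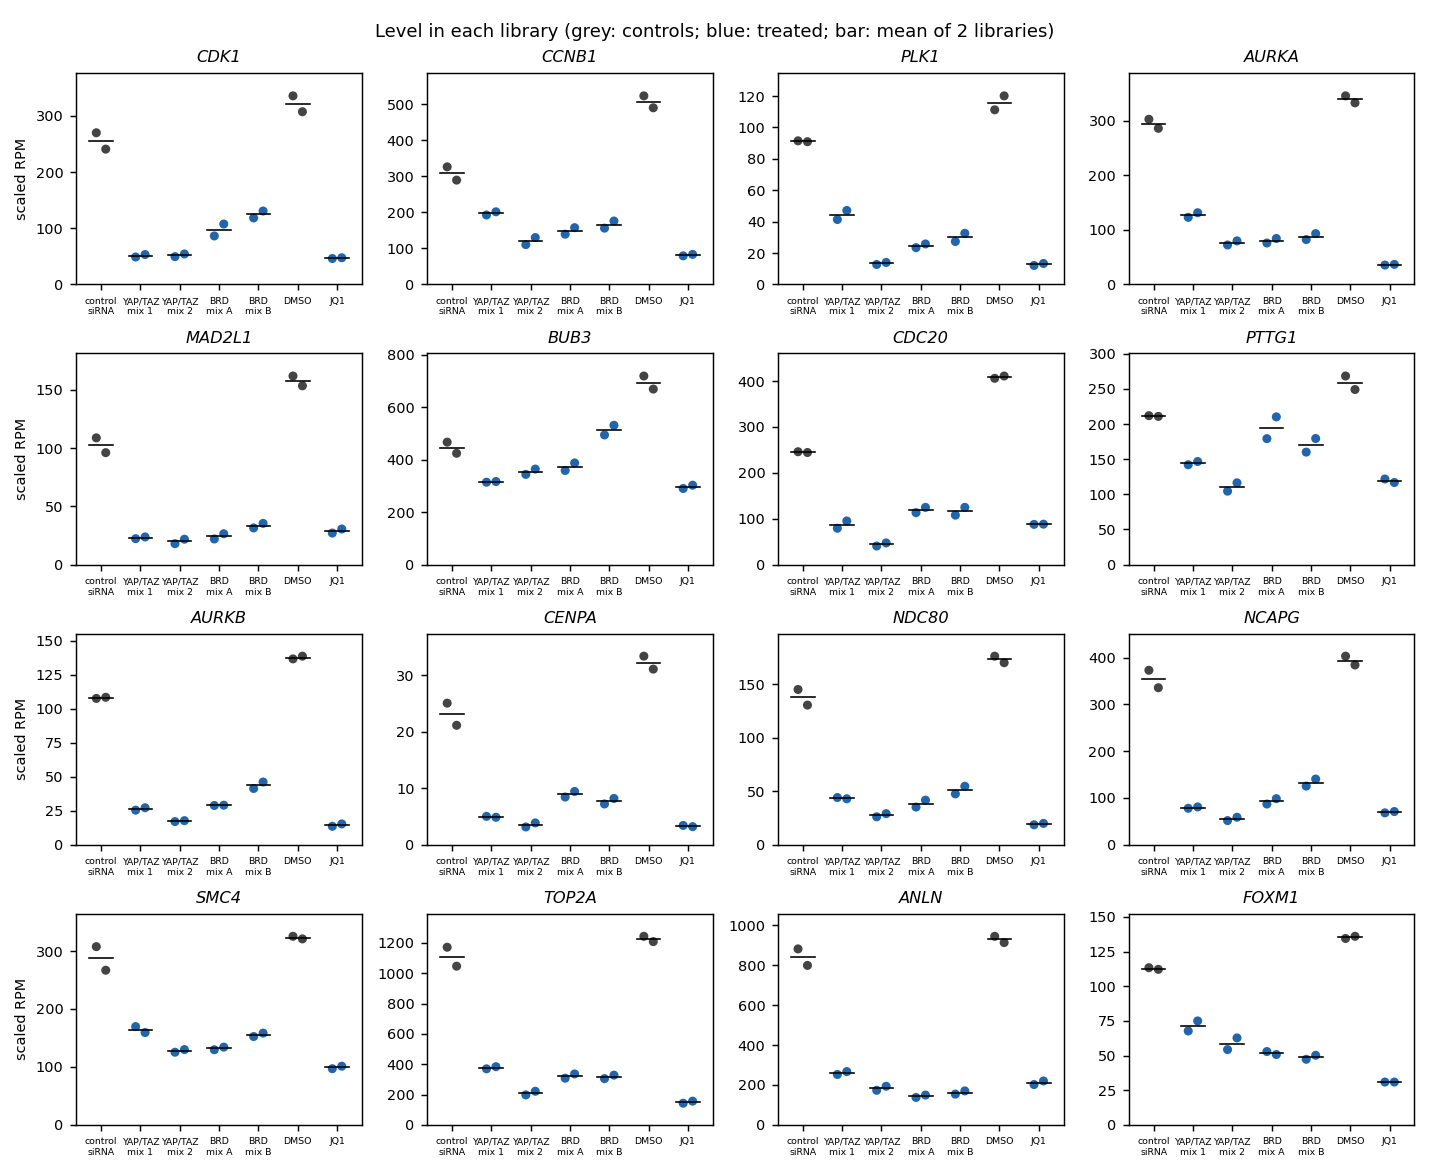
Level (scaled RPM, axes from 0) of 16 genes in each of the 14 libraries; grey points are control siRNA and DMSO, blue points are treated libraries and bars are means of 2 libraries. In 15 of the 16 panels every treated point lies below both points of its own control, and in BUB3 the BRD mix B points (494 and 531) lie above the control siRNA points (467 and 424).

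Of the 5 spindle checkpoint genes, 5 fell with YAP/TAZ siRNA, 4 with BRD siRNA and 5 with JQ1. MAD2L1, which encodes the inhibitor Mad2, stood at 109 and 96.0 with control siRNA, 22.2 and 23.7 with YAP/TAZ mix 1, 17.9 and 21.8 with mix 2, 21.9 and 26.4 with BRD mix A and 31.4 and 35.3 with mix B. With DMSO it stood at 162 and 153, and with JQ1 at 27.0 and 30.5. It fell strongly in all 3 comparisons, by 2.21, 1.81 and 2.41 on the log2 scale. BUB1, a kinase at the kinetochore, was at 226 and 213 with control siRNA, 71.2 and 74.0 with YAP/TAZ mix 1, 38.5 and 40.4 with mix 2, 107 and 124 with BRD mix A and 82.7 and 96.8 with mix B. JQ1 brought 262 and 257 down to 58.8 and 62.6. It is a member that fell less with BRD siRNA (-1.11, SE 0.0645, adjusted p = 2.16e-12) than with YAP/TAZ siRNA (-2.02, SE 0.0645, adjusted p = 1.02e-16), a difference of -0.91 that itself passed the test (adjusted p = 1.1e-12).

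BUB1B, which encodes the checkpoint protein BubR1, had 87.2 and 82.6 with control siRNA, 31.0 and 33.1 with YAP/TAZ mix 1, 19.5 and 21.5 with mix 2, 24.6 and 30.8 with BRD mix A and 29.1 and 31.9 with mix B. It had 114 and 117 with DMSO and 13.4 and 13.8 with JQ1, the largest fall of a checkpoint gene. TTK, the kinase that starts checkpoint signalling, fell by 1.89, 1.68 and 2.27. BUB3 carries both BUB1 and BUB1B to the kinetochore. Its level was 467 and 424 with control siRNA, 314 and 317 with YAP/TAZ mix 1, 344 and 364 with mix 2, 359 and 388 with BRD mix A and 494 and 531 with mix B. JQ1 brought 719 and 669 down to 290.1 and 303. The BRD mixes lay on opposite sides of the controls: mix A gave a log2 fold change of -0.25 (SE 0.0628, adjusted p = 0.00108) and mix B of 0.20 (SE 0.0628, adjusted p = 0.00694). Together they gave -0.03 (95% interval -0.14 to 0.09, adjusted p = 0.673), which was called lower with quantile normalization or plain read totals (-0.15 in both), and the sign turned without control siRNA replicate 1 (0.04) or BRD mix A replicate 1 (0.0016). With JQ1 it fell by 1.22 (SE 0.0628, adjusted p = 2.82e-13).

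All 8 genes of anaphase, APC/C activity and sister cohesion fell in each comparison. CDC20, the co-activator that the checkpoint restrains, was at 246 and 244 with control siRNA, 79.1 and 95.02 with YAP/TAZ mix 1, 40.4 and 47.1 with mix 2, 113 and 125 with BRD mix A and 108 and 125 with mix B. Against 406 and 411 with DMSO, JQ1 gave 87.6 and 88.1. YAP/TAZ siRNA lowered it further (-1.98, SE 0.0716, adjusted p = 6.8e-16) than BRD siRNA (-1.06, SE 0.0716, adjusted p = 2.56e-11), and the difference of -0.92 passed the test (adjusted p = 5.3e-12). UBE2C, the ubiquitin-conjugating enzyme of the APC/C, fell by 1.83, 1.60 and 3.14.

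Separase and its inhibitor stood at opposite ends of this role with BRD siRNA and JQ1, while with YAP/TAZ siRNA the largest fall was in CDCA5. ESPL1, which encodes separase, the protease that cuts cohesin, was at 74.1 and 72.2 with control siRNA, 20.4 and 20.02 with YAP/TAZ mix 1, 11.7 and 13.8 with mix 2, 12.1 and 11.5 with BRD mix A and 13.9 and 14.7 with mix B. DMSO gave 64.2 and 66.0 and JQ1 gave 5.90 and 5.13. JQ1 left 8.47% of the DMSO mean, the largest fall of all 58 members (10.2-fold on the log2(value + 1) scale). PTTG1 encodes securin, which holds separase inactive. Its level was 212 and 211 with control siRNA, 142 and 147 with YAP/TAZ mix 1, 104 and 116 with mix 2, 179 and 210.2 with BRD mix A and 160.0 and 179 with mix B. In the inhibitor experiment it was 268 and 249 with DMSO and 122 and 117 with JQ1. BRD mix A replicate 2 came close under the controls, and the log2 fold change for mix A alone was -0.12 (SE 0.0727, adjusted p = 0.135), the only member besides BUB3 with a mix that did not lower it. Both BRD mixes together gave -0.22 (SE 0.063, adjusted p = 0.00361).

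The protectors of cohesion fell too. CDCA5, which encodes sororin, fell by 2.87 with YAP/TAZ siRNA, the largest fall of any member there, and by 2.06 and 2.51 with BRD siRNA and JQ1. The shugoshin gene SGOL1 fell by 1.91, 1.56 and 2.84, and SGOL2 by 1.33, 0.85 and 2.14. CDCA3, which encodes a factor in the destruction of WEE1, a kinase that holds CDK1 inactive, fell by 2.07, 1.68 and 2.92.

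The 4 genes of the chromosomal passenger complex, which corrects faulty attachments, fell in all 3 comparisons. AURKB, its kinase, was at 108 and 109 with control siRNA, 25.4 and 27.2 with YAP/TAZ mix 1, 17.0 and 17.7 with mix 2, 28.9 and 29.1 with BRD mix A and 41.4 and 46.2 with mix B. The DMSO libraries held 137 and 139 and the JQ1 libraries 13.6 and 15.3. JQ1 left 10.47% of DMSO (log2 fold change -3.17, SE 0.0723, adjusted p = 1.36e-18). CDCA8, which encodes borealin, was at 133 and 134 with control siRNA, 38.2 and 39.5 with YAP/TAZ mix 1, 14.9 and 17.6 with mix 2, 41.3 and 48.6 with BRD mix A and 38.1 and 43.8 with mix B. With DMSO it stood at 186 and 191, and with JQ1 at 16.6 and 18.8. Its log2 fold change with JQ1 was -3.35, and YAP/TAZ mix 1 left more than mix 2, 29.1% against 12.2%.

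BIRC5, which encodes survivin, had 161 and 155 with control siRNA, 89.2 and 96.2 with YAP/TAZ mix 1, 51.5 and 57.0 with mix 2, 57.0 and 66.1 with BRD mix A and 65.3 and 72.4 with mix B. JQ1 brought 246 and 237 down to 48.9 and 42.6. This was the smallest fall of the complex with each treatment, at -1.14, -1.27 and -2.38. INCENP, the scaffold, fell by 1.72, 1.90 and 2.60. BRD mix A left 18.2% of its control level and mix B 37.4%, the widest gap between the BRD mixes among the members (log2 difference -0.9996, SE 0.0756, adjusted p = 7.22e-10).

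All 12 centromere and kinetochore genes fell in each comparison. CENPA, the histone variant that marks centromeres, was at 25.05 and 21.1 with control siRNA, 5.02 and 4.86 with YAP/TAZ mix 1, 3.14 and 3.85 with mix 2, 8.44 and 9.42 with BRD mix A and 7.21 and 8.18 with mix B. Against 33.4 and 31.1 with DMSO, JQ1 gave 3.41 and 3.20. The controls did not overlap the treated libraries, and the log2 fold changes were -2.22 (SE 0.0974), -1.37 (SE 0.0974) and -2.95 (SE 0.112), values that the added 1 makes smaller than the ratios at so low a level. NDC80, the microtubule-binding subunit of the outer kinetochore, was at 145 and 130.4 with control siRNA, 44.1 and 42.9 with YAP/TAZ mix 1, 26.1 and 29.003 with mix 2, 35.1 and 41.6 with BRD mix A and 47.5 and 54.6 with mix B. DMSO gave 176 and 169.9 and JQ1 gave 18.6 and 19.9. JQ1 left 11.1% of NDC80 (log2 fold change -3.10, adjusted p = 1.28e-17) and 10.25% of CENPA, the lowest shares of this role.

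CENPF, a large protein of the outer kinetochore, stood at 548 and 487 with control siRNA, 251 and 249 with YAP/TAZ mix 1, 122 and 124 with mix 2, 320.4 and 289 with BRD mix A and 286 and 296 with mix B. In the inhibitor experiment it was 536 and 590.0 with DMSO and 123 and 139 with JQ1. BRD siRNA lowered it least in this role (-0.79, SE 0.0602, adjusted p = 1.55e-10). CENPE, a kinesin that moves chromosomes to the metaphase plate, fell by 1.61, 1.31 and 2.42, and ZWINT, which links the outer kinetochore to the checkpoint, by 2.48, 1.68 and 2.38.

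The genes of the Ndc80 complex, at the outer kinetochore, are set beside those of the inner kinetochore, a grouping made after the values were seen and so given with no test. With JQ1 the former were at -3.10 (NDC80), -2.796 (NUF2), -2.19 (SPC24) and -2.70 (SPC25). The genes of the constitutive network on CENPA nucleosomes, the inner ones, were at -1.88 (CENPI), -1.28 (CENPM), -1.35 (CENPN) and -1.48 (CENPO). With YAP/TAZ siRNA the former were at -1.96, -2.11, -1.94 and -1.84 and the latter at -1.85, -1.99, -1.85 and -1.24, in the same order of genes. With BRD siRNA they were at -1.62, -1.54, -1.47 and -2.20 and at -1.78, -1.81, -1.43 and -1.66.

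All 8 genes of condensin and chromosome structure fell in each comparison. NCAPG, a subunit of condensin I, was at 373 and 336 with control siRNA, 77.9 and 80.7 with YAP/TAZ mix 1, 51.6 and 58.7 with mix 2, 86.9 and 98.5 with BRD mix A and 125 and 140.3 with mix B. The DMSO libraries held 403 and 384 and the JQ1 libraries 68.1 and 70.9. NCAPH, which closes the condensin I ring, fell by 2.58, 1.63 and 2.08, beside 2.40, 1.67 and 2.48 for NCAPG. NCAPD2, also of condensin I, fell by 1.34, 0.95 and 1.58, and NCAPG2, of condensin II, by 1.71, 1.14 and 1.41.

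The SMC subunits are shared by both condensins. SMC4 stood at 308 and 267 with control siRNA, 169.6 and 159 with YAP/TAZ mix 1, 125 and 129.9 with mix 2, 129.6 and 134 with BRD mix A and 152 and 158 with mix B. With DMSO it stood at 325 and 321, and with JQ1 at 96.9 and 101.2. SMC2 stood at 205 and 184 with control siRNA, 119 and 117 with YAP/TAZ mix 1, 99.4 and 98.7 with mix 2, 89.6 and 97.4 with BRD mix A and 97.2 and 98.7 with mix B. JQ1 brought 251 and 262 down to 94.7 and 96.1. Both genes kept a larger share of their level than NCAPG: the YAP/TAZ mixes left 60.6% and 50.8% of SMC2 and the BRD mixes 48.0% and 50.3%. The log2 fold changes were -0.84, -1.02 and -1.42 for SMC2 and -0.98, -0.996 and -1.70 for SMC4.

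TOP2A, the topoisomerase that untangles sister chromatids, stood at 1171 and 1046 with control siRNA, 369.6 and 384 with YAP/TAZ mix 1, 198 and 221 with mix 2, 308 and 336 with BRD mix A and 305 and 328 with mix B. Against 1243 and 1208 with DMSO, JQ1 gave 143 and 156. JQ1 left 12.2% (log2 fold change -3.03, SE 0.0698, adjusted p = 1.62e-18), the largest fall of this role. MKI67 encodes Ki-67, which coats mitotic chromosomes and is widely stained to count proliferating cells. It was at 188 and 188 with control siRNA, 85.3 and 95.2 with YAP/TAZ mix 1, 47.3 and 52.6 with mix 2, 63.9 and 58.5 with BRD mix A and 83.5 and 88.7 with mix B. DMSO gave 274 and 309 and JQ1 gave 37.8 and 40.2. With both knockdowns it fell by 1.48 and 1.36 and with JQ1 by 2.87 on the log2 scale.

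The 7 spindle and microtubule factors fell in each comparison, with a median of -0.89 with BRD siRNA against -1.52 with YAP/TAZ siRNA and -2.04 with JQ1. TPX2, which activates AURKA on the spindle, was at 400.1 and 373 with control siRNA, 175 and 188 with YAP/TAZ mix 1, 93.6 and 106 with mix 2, 145 and 160.2 with BRD mix A and 145 and 164 with mix B. In the inhibitor experiment it was 475 and 479.7 with DMSO and 80.0 and 84.2 with JQ1. HMMR, a spindle pole protein, was at 30.3 and 27.1 with control siRNA, 7.81 and 8.09 with YAP/TAZ mix 1, 5.61 and 9.22 with mix 2, 17.2 and 22.8 with BRD mix A and 21.3 and 22.4 with mix B. The DMSO libraries held 34.1 and 31.2 and the JQ1 libraries 4.85 and 4.00. It is the member with the widest gap between the knockdowns: YAP/TAZ siRNA gave -1.79 (SE 0.13), BRD siRNA -0.44 (SE 0.13, adjusted p = 0.00426), and the difference was -1.35 (adjusted p = 1.95e-10). Without control siRNA replicate 1, its fall with BRD siRNA missed the threshold (-0.37, adjusted p = 0.0628).

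NUSAP1 and DLGAP5, which stabilise spindle microtubules, had values of the same kind, -2.10 and -1.97 with YAP/TAZ siRNA and -0.95 and -0.89 with BRD siRNA, with differences of -1.16 and -1.08 that passed the test. ASPM, which focuses spindle poles, fell by 1.35, 1.02 and 2.13. CKAP2, a microtubule-associated protein, was at 192 and 167 with control siRNA, 106 and 104 with YAP/TAZ mix 1, 95.4 and 102 with mix 2, 120.5 and 143 with BRD mix A and 144 and 147 with mix B. With DMSO it stood at 253 and 241, and with JQ1 at 74.6 and 75.7. Its BRD libraries lay close under the controls (-0.37, SE 0.0637, adjusted p = 2.41e-05). CKAP5, a microtubule polymerase that also works in interphase, fell by 0.61, 0.44 and 0.89.

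The 4 cytokinesis genes fell in each comparison. ANLN encodes anillin, which anchors the contractile ring. Its level was 882 and 799 with control siRNA, 253 and 267 with YAP/TAZ mix 1, 173 and 194 with mix 2, 138 and 149 with BRD mix A and 154 and 170.1 with mix B. JQ1 brought 945 and 914 down to 202 and 220.0. BRD siRNA lowered it furthest of all members (-2.45, SE 0.0603, adjusted p = 8.63e-18), beyond YAP/TAZ siRNA by 0.51 (adjusted p = 4.33e-09). PRC1, which bundles the central spindle, was at 304 and 298 with control siRNA, 67.6 and 73.3 with YAP/TAZ mix 1, 57.2 and 64.4 with mix 2, 93.6 and 105 with BRD mix A and 117 and 134 with mix B. Against 388 and 379 with DMSO, JQ1 gave 57.8 and 61.0.

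ECT2, the exchange factor that activates RhoA at the cell middle, stood at 458 and 405 with control siRNA, 233 and 229 with YAP/TAZ mix 1, 213 and 222 with mix 2, 231 and 254 with BRD mix A and 199 and 202 with mix B. DMSO gave 409.6 and 393 and JQ1 gave 108 and 107. The 4 mixes left 53.6%, 50.5%, 56.3% and 46.5% of it, and JQ1 26.8%. RACGAP1, the partner of ECT2 in the central spindle, fell by 1.66, 1.77 and 2.56.

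Both transcription factors of mitotic genes fell. FOXM1 was at 113 and 112 with control siRNA, 67.8 and 75.0 with YAP/TAZ mix 1, 54.3 and 62.7 with mix 2, 52.9 and 50.8 with BRD mix A and 47.3 and 50.2 with mix B. In the inhibitor experiment it was 135 and 136 with DMSO and 30.9 and 30.9 with JQ1. Its fall with YAP/TAZ siRNA was under 2-fold (-0.80, SE 0.0594, adjusted p = 9.41e-11), and with JQ1 it was -2.10 (SE 0.0686, adjusted p = 2.26e-16). MYBL2, which encodes B-Myb, was at 82.2 and 88.0 with control siRNA, 23.9 and 25.04 with YAP/TAZ mix 1, 16.7 and 19.9 with mix 2, 19.1 and 20.9 with BRD mix A and 19.9 and 22.8 with mix B. The DMSO libraries held 80.3 and 84.5 and the JQ1 libraries 10.1 and 9.90. The 4 mixes left 28.8%, 21.5%, 23.5% and 25.1% of it, and JQ1 left 12.1%.

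Set directly against each other, YAP/TAZ siRNA left 41 members lower than BRD siRNA did and 10 higher, against 40.3% and 41.1% of all tested genes. The control libraries do not enter this comparison, but the harvest times, 48 h and 72 h, differ between its arms. The widest gaps towards lower values with YAP/TAZ siRNA were in HMMR, NUSAP1, CDK1, DLGAP5 and CDC25C (-1.35, -1.16, -1.08, -1.08 and -1.06). The 10 that were higher were ANLN (0.51), CENPO (0.41), SPC25 (0.37), FOXM1 (0.35), ESPL1 (0.29), AURKA (0.23), SMC2 (0.17), INCENP (0.17), CDC25B (0.15) and BIRC5 (0.12). With plain read totals the split was 32 lower and 15 higher, and with upper-quartile scaling 32 and 14.

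The 2 YAP/TAZ mixes lowered the members by different amounts. Each alone lowered 58 of 58, against 33.6% of all genes with mix 1 and 35.7% with mix 2. Mix 1 left 48 members higher than mix 2 and 4 lower, against 30.9% and 34.8% of all genes, and its 2 libraries lay above both mix 2 libraries in 52 members, against 39% of all genes. The widest gaps were for PLK1 (1.65, SE 0.0884, adjusted p = 1.01e-12), ASPM (1.41), CDCA5 (1.30) and SGOL1 (1.25). The other way lay ZWINT (-1.06, SE 0.0613, adjusted p = 3.55e-12), CDC25B (-0.61), CCNB2 (-0.26) and BUB3 (-0.17). This count of 4 was 2 without mix 1 replicate 1 and 2 without mix 2 replicate 2. Not called were CDK1, MAD2L1, CKAP2, CKAP5, HMMR and ECT2, with differences of -0.02, 0.21, 0.09, 0.12, 0.12 and 0.09. YAP1 was at 22.4 and 24.2 with mix 1 and 18.6 and 21.3 with mix 2, and WWTR1 at 15.3 and 17.2 against 12.7 and 12.8, and the part of this in the gap was not tested.

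**Figure D4:**
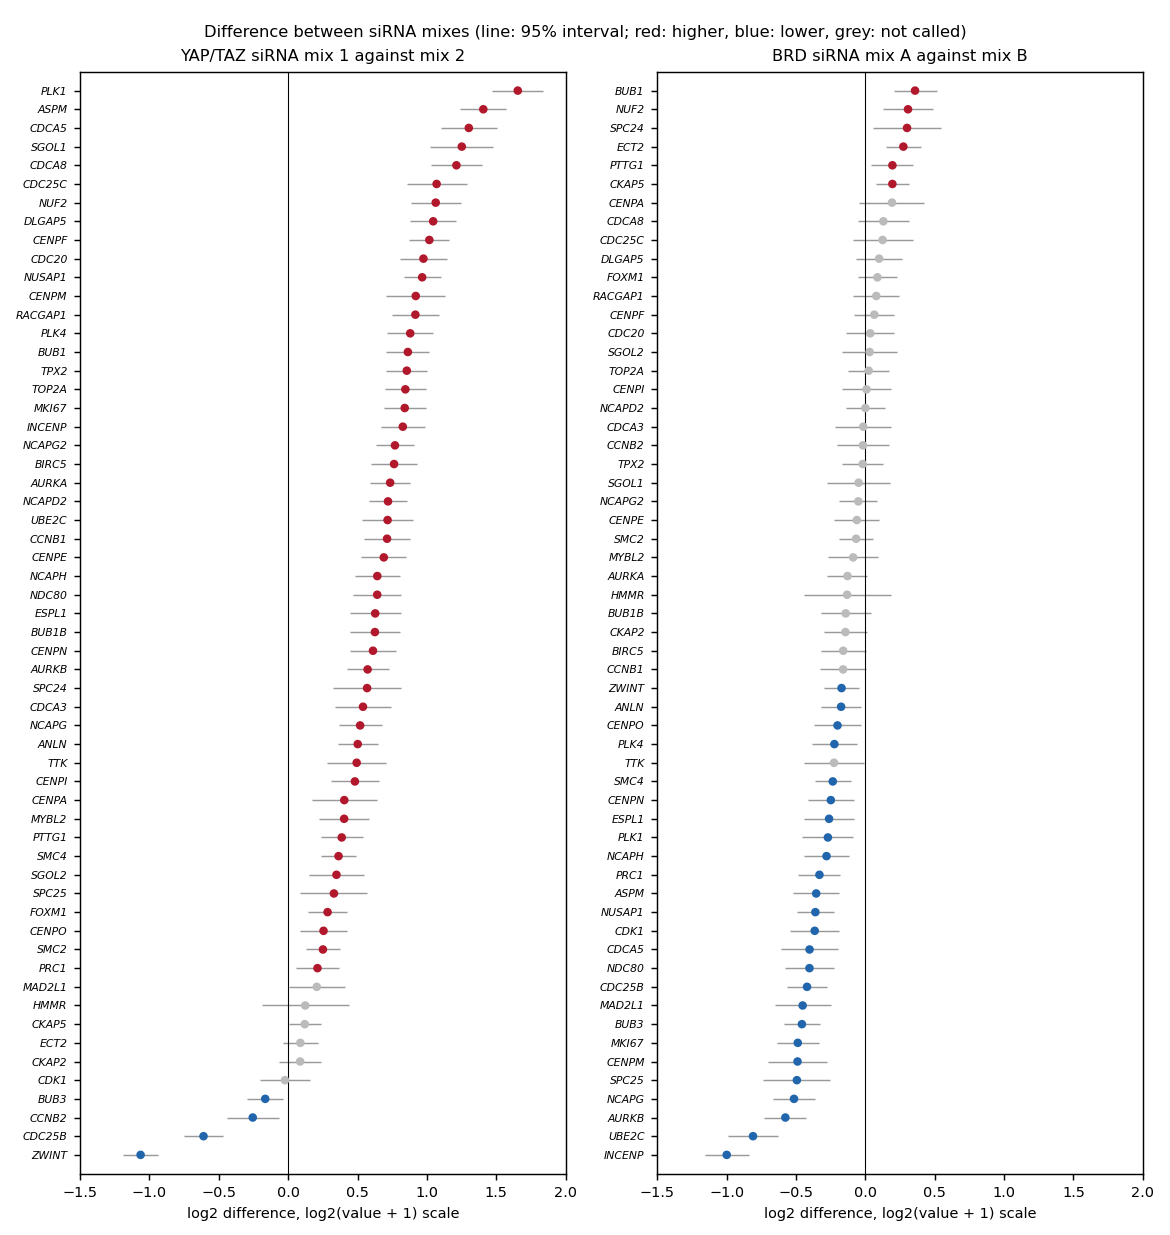
Log2 difference (log2(value + 1) scale) between YAP/TAZ mix 1 and mix 2 and between BRD mix A and mix B for each of the 58 genes, ordered by size; lines are 95% intervals, red is higher in the first-named mix, blue is lower and grey is not called. The left panel is mostly red (48 genes), while the right panel holds 25 blue, 6 red and 27 grey genes.

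The BRD mixes were closer to each other. Mix A lowered 57 members, against 36.1% of all genes, with PTTG1 not called. Mix B lowered 57, against 35.5%, and left BUB3 higher, in a direction shared by 35.3% of all genes. Between the mixes, 25 members were lower with mix A and 6 higher, against 24.3% and 25.7% of all genes. The lower ones were led by INCENP (-0.9996) and UBE2C (-0.81, SE 0.088, adjusted p = 1.54e-07), and the higher ones were BUB1 (0.36), NUF2 (0.31), SPC24 (0.30), ECT2 (0.27), PTTG1 (0.19) and CKAP5 (0.19). The count of 6 was 3 without mix A replicate 2 and 2 without mix B replicate 1. The 2 mix A libraries differed from each other more than those of any other group, which the fit does not allow for. Of the targets, BRD3 was at 9.05 and 10.6 with mix A and 9.25 and 10.1 with mix B, while BRD2 was higher with mix A (204 and 175) than with mix B (166 and 154). The part of this in the differences was not tested.

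JQ1 lowered the members further than either knockdown did, each effect taken against its own control. The difference between the JQ1 effect and the YAP/TAZ effect was lower in 41 members and higher in 5, against 32.4% and 30.9% of all genes, with a median of -0.72. Against the BRD effect it was lower in 52 and higher in 2, against 29.9% and 30.2%, with a median of -1.08. In 41 members it was lower in both, a joint count for which no share of all genes was taken. Most members were lower with control siRNA than with DMSO, and with DMSO as the control of all the gaps were smaller: the median was -2.02 for YAP/TAZ siRNA and -1.79 for BRD siRNA, beside -2.38 for JQ1. The treatments differ in duration (24 h, 48 h and 72 h) and in their controls, which cannot be told apart from the agent.

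CCNB1 (-1.63 and -1.66 against YAP/TAZ and BRD siRNA), AURKA (-1.63 and -1.39), UBE2C (-1.31 and -1.54), MKI67 (-1.39 and -1.504) and BUB1B (-1.31 and -1.48) fell further with JQ1 than with either knockdown. Control siRNA held 60.75%, 86.79%, 77.07%, 64.6% and 73.45% of their DMSO levels, in the same order, which enters these gaps. HMMR had the widest gap to BRD siRNA (-2.19, SE 0.199, adjusted p = 9.01e-09). The 5 members that JQ1 lowered less than YAP/TAZ siRNA were CENPM (0.70, SE 0.136, adjusted p = 0.000133), NCAPH (0.51, adjusted p = 0.000197), CENPN (0.50, adjusted p = 0.000352), CDCA5 (0.35, adjusted p = 0.0225) and NCAPG2 (0.30, adjusted p = 0.00485). Against BRD siRNA they were CENPM (0.52, adjusted p = 0.00237) and ANLN (0.32, adjusted p = 0.00521). CENPM stood at 27.1 and 27.3 with DMSO and 10.8 and 10.46 with JQ1, and at 21.5 and 23.5 with control siRNA against 3.14 and 3.49 with YAP/TAZ mix 2.

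**Figure D5:**
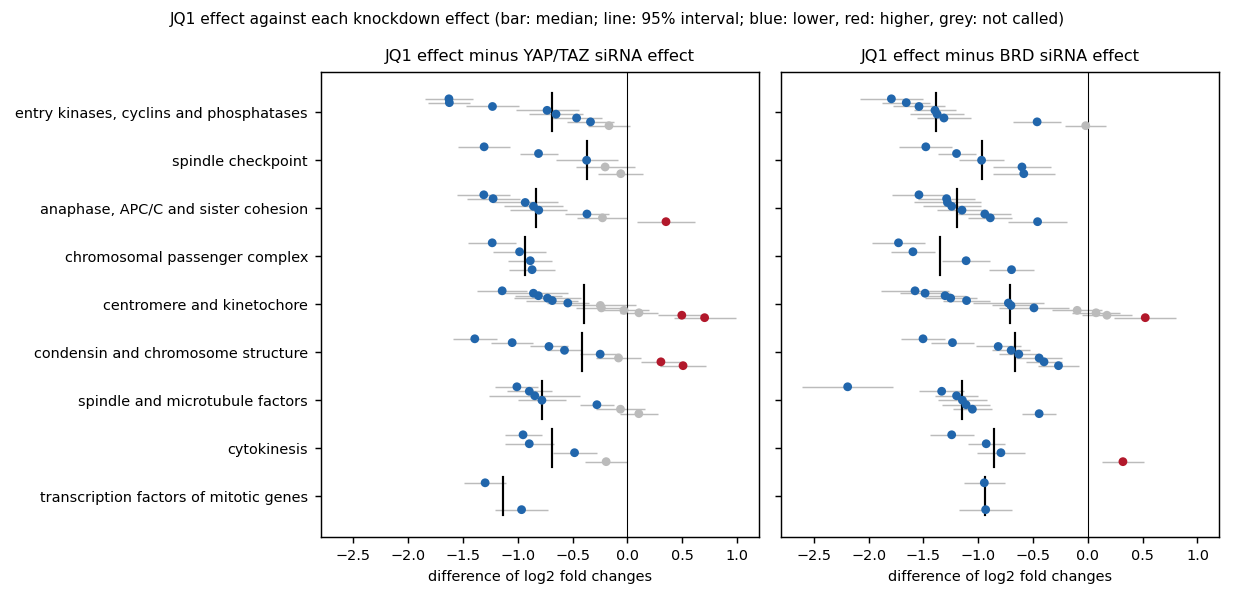
Difference between the log2 fold change with JQ1 (against DMSO) and that with YAP/TAZ siRNA (left) or BRD siRNA (right, both against control siRNA) for each of the 58 genes, by role; lines are 95% intervals, bars are medians of the role, blue is lower, red is higher and grey is not called. Most points lie left of 0 (41 and 52 blue), and the red points are 5 on the left and 2 on the right.

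The controls differed as well. With control siRNA 36 members were lower than with DMSO and 1, CDC25B (0.36, SE 0.0681, adjusted p = 0.000136), was higher, against 28.7% and 25.4% of all genes. In 46 members both control siRNA libraries lay below both DMSO libraries, against 39.6% of all genes. The median difference was -0.26, with a range from -0.73 to 0.36. The largest falls were in CDC20 (-0.73, SE 0.0827, adjusted p = 2.96e-07), CCNB1 (-0.72), BUB3 (-0.64), MKI67 (-0.63), MAD2L1 (-0.62) and BIRC5 (-0.61). Control siRNA left a median of 83.3% of the DMSO level. With quantile normalization the split was 25 lower and 4 higher, and with plain read totals 22 and 4, so the smaller differences depend on the scaling. Whether the transfection, the culture time or the vehicle went with this difference cannot be told apart.

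Genes of the same machinery outside the 58 were read from 5 lists. For their counts, the shares of all tested genes are 35.9% lower and 43.1% higher with YAP/TAZ siRNA. They are 37.6% each way with BRD siRNA, and 36.3% lower and 37.6% higher with JQ1. Of 24 other mitotic regulators, 23 fell and 1 rose with YAP/TAZ siRNA, 21 fell and 0 rose with BRD siRNA, and 23 fell and 0 rose with JQ1, with medians of -1.64, -1.28 and -2.27. PKMYT1, a kinase that holds CDK1 inactive, was at -2.76 and -2.98 with the knockdowns. CCNA2, which encodes cyclin A, was at -2.15 with YAP/TAZ siRNA and -3.42 with JQ1, MASTL, a kinase that restrains the phosphatase opposing CDK1, at -2.17 with BRD siRNA, and DEPDC1 at -3.33 with JQ1. FZR1, the APC/C co-activator of late mitosis and G1, was the gene that rose (0.30, SE 0.0651, adjusted p = 0.000314).

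Of 24 other kinetochore and centromere genes, 22 fell and 0 rose with each of YAP/TAZ siRNA, BRD siRNA and JQ1, with medians of -1.49, -1.32 and -1.46. CENPQ was at -2.71 and -2.62 with the knockdowns. It differed between the mixes, by -1.22 for YAP/TAZ mix 1 minus mix 2 and by -2.02 for BRD mix A minus mix B. SKA3 was at -2.43 with YAP/TAZ siRNA and -2.21 with JQ1, CENPW at -2.15 with BRD siRNA, and HJURP, the chaperone of CENPA, at -3.12 with JQ1. Values with JQ1 overlapped between the inner and the outer genes of this list. Among the inner genes they were -0.32 for CENPC, -1.38 for CENPH, -1.97 for CENPK, -1.96 for CENPL, -0.69 for CENPP, -1.86 for CENPQ, -0.03 for CENPT and -1.31 for CENPW. Among the outer genes they were -0.73, -1.20, -0.14 and -0.29 for MIS12, DSN1, NSL1 and PMF1 of the Mis12 complex, and -1.61 for CASC5. The SKA genes were at -1.68 (SKA1), -0.55 (SKA2) and -2.21 (SKA3), and ZW10, ZWILCH and KNTC1, whose proteins bring the dynein motor to kinetochores, at -0.98, -1.54 and -1.60.

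The lists of other condensin and cohesin genes and of APC/C core subunits had smaller median falls than the mitotic regulators and kinetochore genes above. Of 12 other condensin and cohesin genes, 10 fell and 2 rose with YAP/TAZ siRNA, 8 fell and 2 rose with BRD siRNA, and 11 fell and 0 rose with JQ1, with medians of -0.61, -0.26 and -0.74. The condensin II subunits NCAPD3 (-1.68, -1.40 and -1.65) and NCAPH2 (-1.34, -1.13 and -1.13) led this list in all 3. Of 13 core subunits of the APC/C, the enzyme that CDC20 and UBE2C serve, 6 fell and 4 rose with YAP/TAZ siRNA, 6 fell and 5 rose with BRD siRNA, and 9 fell and 3 rose with JQ1, with medians of -0.11, -0.04 and -0.39. With the knockdowns these counts lie near the shares of all tested genes (35.9% lower and 43.1% higher with YAP/TAZ siRNA, 37.6% each way with BRD siRNA). CDC23 was at -1.42, -0.93 and -1.36, ANAPC1 at -1.25 with YAP/TAZ siRNA, and ANAPC16 at 0.94 and 1.24 with BRD siRNA and JQ1.

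Of 10 genes of the DREAM and MuvB complexes, 7 fell in each comparison, while 1, 3 and 2 rose with YAP/TAZ siRNA, BRD siRNA and JQ1. Among all tested genes 35.9%, 37.6% and 36.3% fell and 43.1%, 37.6% and 37.6% rose. RBL1, the pocket protein p107, was at -2.15, -2.32 and -1.85. LIN9, a MuvB subunit, was at -2.35 with JQ1, LIN52, another, at -1.30 with BRD siRNA, and TFDP1, a partner of E2F factors, at -1.83 with YAP/TAZ siRNA. LIN54, the subunit that reads CHR letters, was at -0.09 (adjusted p = 0.19), -0.28 (adjusted p = 0.000387) and -0.89 (adjusted p = 4.46e-10).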

How the data were processed

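Total RNA of the 14 libraries was made into stranded, ribosome-depleted libraries, per the labels' protocols. Per the submitters' processing notes, the build was hg19 and the tools were TopHat2 2.0.5, HTSeq 0.6.0, CASAVA 1.8.4, R 3.0.0 and edgeR. Not given in the sources used here are their roles, the annotation, the strand setting and the handling of reads shared between gene copies or overlapping genes. The deposited values are a scaled signal, in RPM: dividing each column by its smallest step gave whole reads for 100% of values (tolerance 0.01), and the authors' scaling factors (0.911 to 1.11) matched TMM factors of edgeR to within 1.96e-12. A single read was worth 0.0276 to 0.0602, so the levels named here rest on many reads. The plan had assumed plain CPM, and the test for normalized values was kept.

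Values were transformed to log2(value + 1), the 13674 genes that reached a value of 1 in 2 or more libraries were kept, and limma 3.58.1 in R 4.3.3 fitted all 14 libraries together, with a mean for each group and a variance trend. The groups share the estimate of spread. Chi-square per gene between the 2 libraries of a group was 10.55 in BRD mix A and 3.44 to 4.94 in the other groups. P-values that involve mix A may therefore be too small. Tests were two-sided, with Benjamini-Hochberg adjustment over all tested genes, and were checked on simulated data. The added 1 makes fold changes of low genes too small. Values are given in every library for textbook members of each role, for the members with the largest and the smallest change of a role over the 3 comparisons with a control (log2 scale), and for members not called lower. From the other lists, the genes with the 2 largest changes per comparison are named, with FZR1, LIN54 and further kinetochore genes added after their values were seen. The members and lists were chosen with earlier results of these data known. Alternatives were other scalings, pseudocounts and filters, a replicate block, a fit without variance trend, only the libraries compared, edgeR 4.0.16 and DESeq2 1.42.0 on the recovered counts, each mix alone, DMSO as the control, and each library left out. Scaling by plain read totals was added after seeing the data.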

Additional observations from a re-analysis of the deposited data

Results flagged for a closer look

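Several kinds of difference between groups passed a direct test among the 58 genes. The YAP/TAZ mixes differed from each other in 52 members (48 higher and 4 lower with mix 1, against 30.9% and 34.8% of all tested genes). The BRD mixes differed in 31 (25 lower and 6 higher with mix A, against 24.3% and 25.7% of all genes, so the total lies near that of all genes). The JQ1 effect differed from the YAP/TAZ siRNA effect in 46 members (41 lower and 5 higher, against 32.4% and 30.9%) and from the BRD siRNA effect in 54 (52 lower and 2 higher, against 29.9% and 30.2%). BUB3 stood out because the BRD mixes moved it in opposite directions, with a difference of -0.46 (mix A minus mix B, log2 scale, adjusted p = 3.74e-06, limma). With 2 libraries per group, no test for a single outlying library was made.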

How the results depend on the processing

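The counts of members called with YAP/TAZ siRNA (58 lower) and JQ1 (58 lower) were the same under every alternative run, and that with BRD siRNA (57 lower) ran from 56 to 58, with 1 higher with mix B alone. For control siRNA against DMSO, 36 lower and 1 higher in the report, plain read totals gave 22 lower, and the count higher was 4 with quantile normalization, 3 with upper-quartile scaling, 4 with plain read totals, 2 with only the libraries compared and 2 with edgeR. Leaving out each library gave 27 to 38 lower and 1 to 2 higher there (2 without control siRNA replicate 2), 2 to 4 lower for YAP/TAZ mix 1 against mix 2, and 2 to 7 higher and 18 to 29 lower for BRD mix A against mix B. The mix 1 count lower was also 2 without the variance trend. Plain read totals moved the median of all genes by -0.106 with BRD siRNA, 0.108 for control siRNA against DMSO, 0.156 for YAP/TAZ against BRD siRNA and -0.105 for JQ1 minus YAP/TAZ.

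Signs of small differences turned for a few genes, and the cause was not tested. BUB3 with BRD siRNA ran from -0.095 to 0.042 as each library was left out in turn, and was above 0 when control siRNA replicate 1 (0.042) or mix A replicate 1 (0.0016) was left out. The other genes turned only for control siRNA against DMSO. CKAP5 was -0.010 with median-ratio scaling and -0.0066 with DESeq2. Quantile normalization gave 0.149 for CENPF, 0.159 for TOP2A, 0.067 for ASPM, 0.097 for DLGAP5 and 0.122 for ANLN. Plain read totals gave 0.034 for PLK4, 0.012 for TTK, 0.024 for INCENP, 0.016 for CENPE, 0.0080 for CENPF, 0.056 for ASPM and 0.080 for DLGAP5. Leaving out each library gave -0.065 to 0.072 for CKAP5, -0.240 to 0.0086 for TTK, -0.226 to 0.00090 for CENPE, -0.195 to 0.048 for ASPM, -0.127 to 0.029 for DLGAP5, -0.0031 to 0.094 for MYBL2 and -0.210 to 0.0010 for INCENP.

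Replicate number was not taken as a pairing in the main fit. The differences between replicates 1 and 2 correlated by -0.373 to 0.254 over 21 pairs of groups, with 7 pairs over 0.1. Whether some groups share a shift by replicate number was not tested. With the replicate block 58, 57 and 58 members were lower in the 3 comparisons, and 36 lower and 1 higher for control siRNA against DMSO.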
